A study of Mus musculus with 4 samples.

Results

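Of 10 genes of the Notch pathway chosen by name, 9 were found among the 17746 gene symbols of the authors' table: the ligands Dll1, Dll3 and Jag1, the receptors Notch1 and Notch2, the nuclear factor Rbpj, the Notch target Hes1, its relative Hes6, and the neuronal repressor Rest. Notch3 was looked up without a match and is not analysed here. RNA was sequenced from lung tumours of RPΔG mice, which carry floxed Rb1 and Trp53 (Rb1fl/fl; Trp53fl/fl), alleles used to model small cell lung cancer. All animals also carried the GFP-LC3-RFP-LC3ΔG knock-in, a reporter whose GFP part is degraded by autophagy while its RFP part is not. Live EpCAM-positive, RFP-positive cells were sorted into GFP-negative cells (2 libraries) and GFP-positive cells (2 libraries). Both groups share the floxed alleles, the reporter and the sort on EpCAM and RFP, and differ in GFP. Neither the route of Cre, nor the age of the mice, nor the number of animals behind each group is given in the sources used here, so p-values measure only the spread between these libraries, which may be technical. The sample titles call the GFP-positive libraries high in flux, while the series' design text calls the GFP-negative cells so. Groups are therefore named by GFP, and no direction is drawn for flux.

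Notch signalling passes between neighbouring cells: a ligand of the Delta or Jagged kind on one cell binds a Notch receptor on the next, the receptor is cleaved, and its intracellular part enters the nucleus and turns the DNA-binding protein Rbpj from a repressor into an activator of genes such as Hes1. Hes1 in turn represses proneural genes, while Hes6 opposes Hes1. In small cell lung cancer, neuroendocrine tumour cells often carry Dll3, a ligand that inhibits the pathway from within the same cell, and cells with active Notch are known to take on a less neuroendocrine state marked by Hes1 and Rest, the repressor of neuronal genes.

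GFP-positive replicate 1 stood apart from the other libraries, and 6 of the 9 genes had at most 5 counts in it. Library totals ran from 69676412 to 73997175 counts in the GFP-negative group and from 51994432 to 67536465 in the GFP-positive group. GFP-positive replicate 1 had counts for 6063 symbols, against 15710 to 17617 in the other 3 libraries. Of the 11250 tested genes that averaged 1 to 50 CPM (counts per 1e6 counts of the TMM-adjusted library size) in the other 3 libraries, 81.2% had at most 5 counts there. Results are therefore also given without that library. Of 10 neuroendocrine markers, 10 had counts in both GFP-negative libraries and 8 and 10 in the GFP-positive ones, with summed levels of 4662 and 2018 CPM against 3556 and 1303 CPM. Rb1 ranged from 0 to 9.0 CPM in GFP-negative and from 0 to 4.06 CPM in GFP-positive libraries, and Trp53 from 4.37 to 13.1 CPM and from 20.4 to 62.6 CPM, but counts over whole genes do not check the floxed exons.

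None of the 9 genes passed a test between GFP-negative and GFP-positive libraries when all 4 libraries were fitted. At a Benjamini-Hochberg adjusted p under 0.05, edgeR's quasi-likelihood test called 0 of the 9, where it called 16 of 16301 tested genes (0.0982%). At an unadjusted p under 0.05 the count was also 0 of 9, against 3.10% of all tested genes. DESeq2's Wald test, which called 0.386% of all genes, and limma on deposited FPKM, which called 0.141% with a pseudocount of 1 and 0.258% with 0.1, also called 0 of 9. So did edgeR with a replicate block (0.129% of all genes), no filter (0.0902%), DESeq2 size factors (0.117%), library totals (0.110%) or genes with counts in all 4 libraries (0.0910%), and without GFP-negative replicate 1 (0.139%), GFP-negative replicate 2 (0.351%) or GFP-positive replicate 1 (0.00587%). Without GFP-positive replicate 2 it called 45.2% of all genes, with Dll1, Dll3, Jag1 and Rbpj among them as higher in GFP-negative libraries, where GFP-positive replicate 1 was the GFP-positive library left. With 2 libraries in each group an exact permutation test cannot go below p = 0.333 (two-sided) and was not used. The spread between libraries was wide, with an edgeR common dispersion of 3.67, so a gene left uncalled may still differ between the groups.

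The log2 change, GFP-negative minus GFP-positive, was above 0 for 6 of the 9 genes, where 68.1% of all tested genes were above 0, and its median over the 9 was 0.86. Over all tested genes the median was 0.91, and 0.29 without GFP-positive replicate 1, so a change near those values is that of a typical gene. All 9 genes passed the filter on low counts. Levels below are CPM, with replicate 1 of a group before replicate 2. The limit that a count of 0 allows, 3 counts, equals 0.0264 and 0.0451 CPM in GFP-negative and 0.0800 and 0.0471 CPM in GFP-positive libraries, for counting error only. In bulk RNA, fewer cells of a type and less RNA per cell cannot be told apart.

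Hes6 and Dll3 were at higher levels in both GFP-negative libraries than in either GFP-positive library, and Hes1 and Notch2 at lower levels. Groups failed to overlap for many genes: GFP-negative libraries were both higher for 25.2% of all tested genes and both lower for 6.63%, against 2 and 2 of the 9. The order held for Hes6, Dll3 and Hes1 with CPM by library totals, with DESeq2 size factors and with deposited FPKM. For Notch2 the groups overlapped with library totals and with FPKM. Jag1 was higher in both GFP-negative libraries under those 3 scalings, though not in TMM-scaled CPM.

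**Figure D1:**
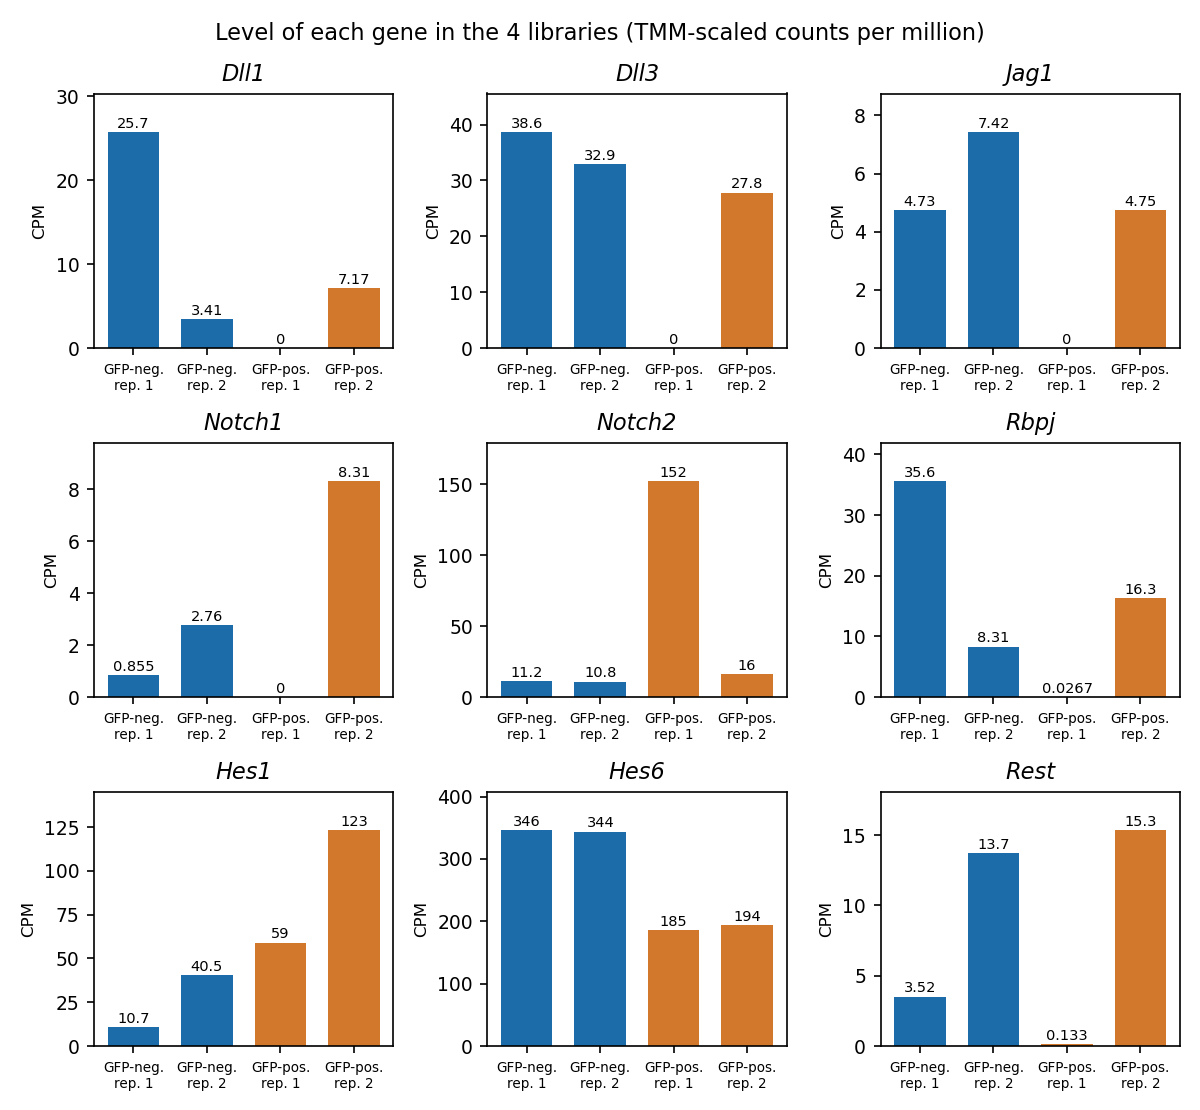
Level of each of the 9 genes in the 4 libraries, in TMM-scaled CPM on a linear axis that starts at 0, 1 bar per library, with GFP-negative libraries in blue left of GFP-positive libraries in orange and no error bars. Hes6 stands at 346 and 344 CPM in GFP-negative libraries and at 185 and 194 CPM in GFP-positive libraries, and 6 genes are at or close to 0 in GFP-positive replicate 1.

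Of Dll1, Dll3 and Jag1, Dll3 was the most abundant per length in the 3 libraries that held counts for it. Dll3, the inhibitory ligand that is a surface target of therapy in human small cell lung cancer, had 38.6 and 32.9 CPM in GFP-negative libraries, against 0 and 27.8 CPM in GFP-positive libraries. GFP-positive replicate 2 lay just below the GFP-negative libraries, and GFP-positive replicate 1 had no counts. By library totals the same levels were 59.2 and 31.5 CPM in GFP-negative libraries, against 0 and 26.3 CPM in GFP-positive libraries, so GFP-negative replicate 1 then stood well above the rest. Its log2 change was 1.36 ± 4.18 (SE, n = 2 per group, edgeR adjusted p = 1.0). Leaving out GFP-positive replicate 1 gave 0.36, where a typical gene was at 0.29. Dll3 lies on chromosome 7 (mm10) from 28293553 to 28302238 on the minus strand.

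The promoter windows of Dll3 and Hes6, the genes at higher levels in both GFP-negative libraries, are shown because both hold the E-box CAGCTG, letters of the kind that proneural factors are known to bind. Each window runs from 250 bases before to 50 bases after a start site, from RefSeq on GRCm38.p6, the assembly called mm10, and is written 5′ to 3′ on the gene's strand with CAGCTG in capitals. Dll3 has 1 window, at chr7:28301736-28302035, and Hes6 has 2, at chr1:91413989-91414288 and chr1:91413173-91413472, all on the minus strand.
Dll3: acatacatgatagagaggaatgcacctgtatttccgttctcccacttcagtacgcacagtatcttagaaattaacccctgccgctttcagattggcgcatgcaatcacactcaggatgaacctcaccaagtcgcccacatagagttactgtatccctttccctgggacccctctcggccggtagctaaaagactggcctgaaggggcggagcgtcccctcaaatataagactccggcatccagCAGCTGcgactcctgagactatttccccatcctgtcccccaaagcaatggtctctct
Hes6 start 1: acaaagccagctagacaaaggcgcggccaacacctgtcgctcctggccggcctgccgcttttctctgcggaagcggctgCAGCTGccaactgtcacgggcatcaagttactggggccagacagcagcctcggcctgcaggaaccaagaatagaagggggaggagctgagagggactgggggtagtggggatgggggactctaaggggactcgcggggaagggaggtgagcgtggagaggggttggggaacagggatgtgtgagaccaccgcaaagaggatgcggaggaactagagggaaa
Hes6 start 2: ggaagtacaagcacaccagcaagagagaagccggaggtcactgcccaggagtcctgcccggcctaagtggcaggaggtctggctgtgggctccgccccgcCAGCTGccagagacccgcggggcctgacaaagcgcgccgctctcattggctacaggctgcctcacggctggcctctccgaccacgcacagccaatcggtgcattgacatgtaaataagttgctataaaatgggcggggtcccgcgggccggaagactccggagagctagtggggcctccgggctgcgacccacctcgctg
Counted from the start site, the match begins at -7 in Dll3 and at -171 and -150 in the windows of Hes6. The RefSeq table held windows for 7 of the 9 genes, 10 windows in all. CAGCTG, which reads the same on both strands, was found in windows of all 3 ligands and of Hes6, 4 of 7 genes, and in none of Notch1, Notch2 and Rbpj. In the whole table, 18.3% of 27025 genes have it in some window. The Rbpj core TGGGAA, searched on both strands, was found in Rbpj itself, 1 of 7 genes against 28.3% of all genes. The N-box CACNAG, letters bound by Hes proteins, was searched on both strands and found in Dll1, Notch1, Notch2 and Hes6, 4 of 7 genes against 46.1%. Of its 3 matches in Notch1, those at -3 and -1 overlap each other, and no match of one motif overlapped one of another in these windows. The matches are letters in a window and no measure of binding.

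Dll1, an activating Delta ligand, was high in a single library. It had 25.7 and 3.41 CPM in GFP-negative libraries, against 0 and 7.17 CPM in GFP-positive libraries, so GFP-negative replicate 2 lay below GFP-positive replicate 2. Its log2 change of 2.02 ± 4.60 was 1.01 without GFP-positive replicate 1 and -0.0738 without GFP-negative replicate 1. Jag1, a Jagged ligand, had 4.73 and 7.42 CPM in GFP-negative and 0 and 4.75 CPM in GFP-positive libraries, where GFP-negative replicate 1 and GFP-positive replicate 2 were nearly equal (log2 change 1.35 ± 4.49, and 0.35 without GFP-positive replicate 1). Dll1 lies on chromosome 17 from 15367354 to 15376872 and Jag1 on chromosome 2 from 137081456 to 137116644, both on the minus strand of mm10. A noncoding gene on the opposite strand overlaps Dll1 by 1873 bases, and the kit as described does not mark strand, so reads from the shared bases cannot be assigned.

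The receptors had log2 changes below 0, each set by different libraries. Notch2 had 11.2 and 10.8 CPM in GFP-negative libraries and 152 and 16 CPM in GFP-positive libraries. GFP-positive replicate 1 was far higher than the other 3 libraries. The GFP-negative libraries were nearly equal in this scaling, whereas by library totals they stood at 17.2 and 10.4 CPM, against 109.7 and 15.1 CPM in GFP-positive libraries. The log2 change of Notch2 was -2.93 ± 3.77 (n = 2 per group, edgeR adjusted p = 1.0), and leaving out that library gave -0.54. Notch1 had 0.855 and 2.76 CPM in GFP-negative libraries, against 0 and 8.31 CPM in GFP-positive libraries, so the lowest and the highest value both lay in the GFP-positive group. Its log2 change was -1.20 ± 4.35, and -2.20 without GFP-positive replicate 1.

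Notch1 was the least abundant of the 9 genes per length in every library but GFP-positive replicate 1, where it shared 0 with the 3 ligands. Notch2 lies on chromosome 3 from 98013527 to 98150361 on the plus strand and Notch1 on chromosome 2 from 26457903 to 26516663 on the minus strand of mm10. Notch1 shares 1488 bases with 0610009E02Rik on the opposite strand, which had 84 and 0 counts in GFP-negative and 0 and 69 counts in GFP-positive libraries. Notch4, a receptor outside the 9, had 1.10 and 0.901 CPM in GFP-negative libraries, against 65.7 and 3.55 CPM in GFP-positive libraries, again highest in GFP-positive replicate 1 (log2 change -5.11 ± 5.09, and -1.83 without that library).

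Rbpj, the DNA-binding protein on which canonical Notch signalling depends, had 35.6 and 8.31 CPM in GFP-negative libraries, against 0.0267 and 16.3 CPM in GFP-positive libraries. The groups overlapped, with GFP-negative replicate 1 highest and a single count in GFP-positive replicate 1. Its log2 change was 1.42 ± 4.41, 0.42 without that library and 0.0195 without GFP-negative replicate 1. Rbpj lies on chromosome 5 (mm10) from 53466152 to 53657362 on the plus strand, and an antisense gene overlaps it by 3472 bases.

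Hes6 encodes a Hes-family protein that binds Hes1 and relieves its repression, and is typical of neurogenic and neuroendocrine cells. It had 346 and 344 CPM in GFP-negative libraries, against 185 and 194 CPM in GFP-positive libraries. The libraries of each group lay close together and the groups did not overlap. The log2 change of Hes6 was 0.86 ± 1.86 (n = 2 per group, edgeR adjusted p = 1.0), whereas leaving out GFP-positive replicate 1 gave 0.83. With all 4 libraries this change is close to the 0.91 of a typical gene. Without GFP-positive replicate 1 a typical gene was at 0.29, below Hes6. Among genes with counts in all 4 libraries, Hes6 was at 0.95 and the median at -0.06. In deposited FPKM (fragments scaled to transcript length and library size), the spread within the GFP-negative group was wider, at 259 and 158 against 66.2 and 86.8 in GFP-positive libraries. Hes6 lies on chromosome 1 (mm10) from 91411483 to 91414038 on the minus strand.

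Hes1, the repressor that Notch induces through Rbpj, showed the opposite order. It had 10.7 and 40.5 CPM in GFP-negative libraries and 59.0 and 123 CPM in GFP-positive libraries. The groups did not overlap, but the gap between GFP-negative replicate 2 and GFP-positive replicate 1 was smaller than the gap within either group. The log2 change of Hes1 was -1.83 ± 3.35 (n = 2 per group, edgeR adjusted p = 1.0), and leaving out GFP-positive replicate 1 gave -2.27. It was -1.17 without GFP-negative replicate 1, -3.06 without GFP-negative replicate 2 and -1.21 without GFP-positive replicate 2. With Hes6 and Notch2, Hes1 was one of 3 genes with more than 5 counts in every library, at 1212 and 2694 counts in GFP-negative and 2213 and 7848 counts in GFP-positive libraries. It lies on chromosome 16 (mm10) from 30064384 to 30067796 on the plus strand.

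The balance of Hes6 to Hes1 is a ratio within a library, so no scaling between libraries enters it. It was chosen after the values of both genes were seen and is a description. In deposited FPKM, Hes6 exceeded Hes1 by 36.5-fold and 9.58-fold in GFP-negative libraries and by 3.54-fold and 1.77-fold in GFP-positive libraries. Hes6 was the higher gene in all 4 libraries, and the ratio was higher in both GFP-negative libraries than in either GFP-positive library. Within the GFP-negative group the ratio itself differed more than 3-fold between the replicates.

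**Figure D2:**
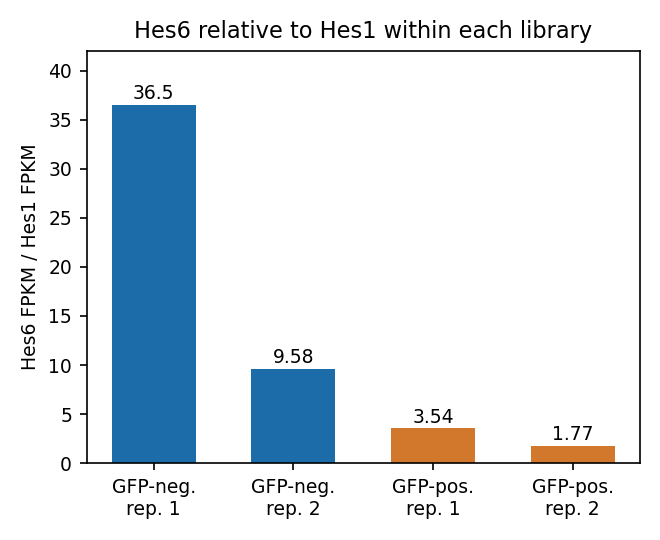
Deposited FPKM of Hes6 divided by that of Hes1 within each library, on a linear axis that starts at 0, with GFP-negative libraries in blue left of GFP-positive libraries in orange. The ratio is 36.5 and 9.58 in GFP-negative libraries and 3.54 and 1.77 in GFP-positive libraries.

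Rest, which silences neuronal genes outside neurons, had 3.52 and 13.7 CPM in GFP-negative libraries, against 0.133 and 15.3 CPM in GFP-positive libraries. One library of each group was at about the same level, and the groups overlapped. Its log2 change of 0.15 ± 4.44 turned to -0.84 without GFP-positive replicate 1 and to -1.15 without GFP-negative replicate 2. Rest lies on chromosome 5 (mm10) from 77265491 to 77286432 on the plus strand.

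**Figure D3:**
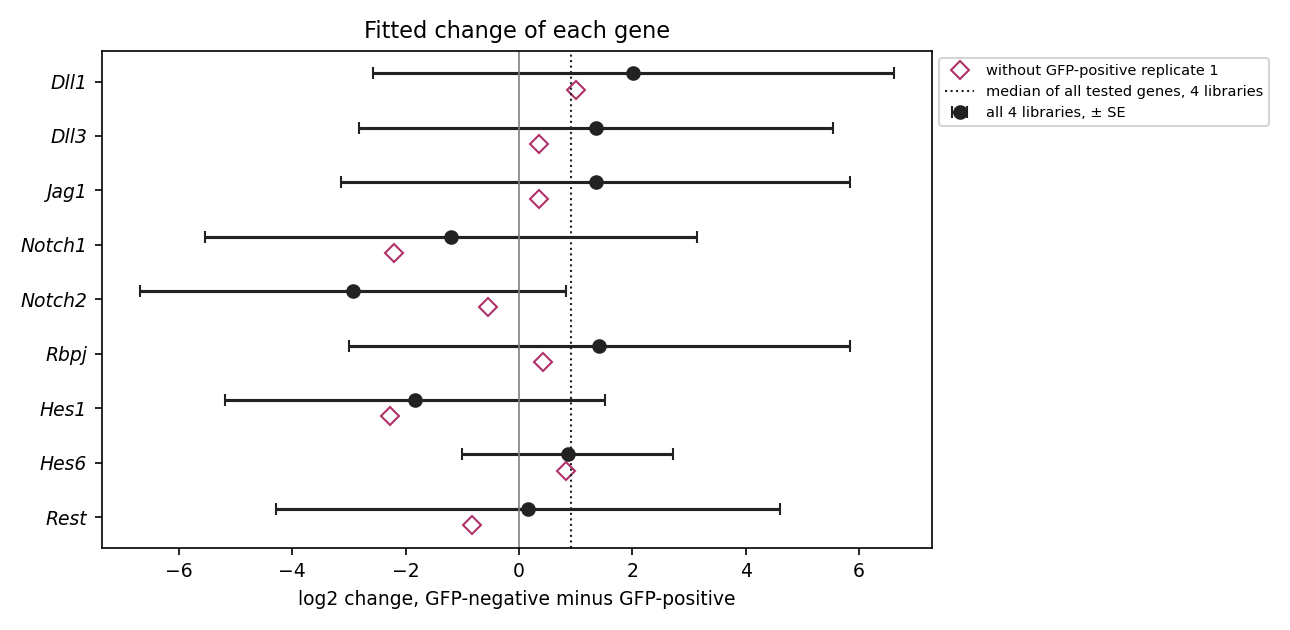
Fitted log2 change of each gene, GFP-negative minus GFP-positive, with all 4 libraries (black points, bars are ± SE, n = 2 per group) and without GFP-positive replicate 1 (open diamonds, no error shown). The dotted line is the median of all tested genes, 0.91. Every bar but that of Notch2 spans the dotted line, and every bar spans 0.

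Set side by side per length, the genes spanned a wide range. In deposited FPKM, Hes6 was the highest in each library, at 259 and 158 in GFP-negative and 66.2 and 86.8 in GFP-positive libraries. Hes1 was the second in 3 libraries and the fourth in GFP-negative replicate 1, where Dll3 and Dll1 stood above it at 18.3 and 8.23 FPKM against 7.08 FPKM. Dll3 was the third in GFP-negative replicate 2 and in GFP-positive replicate 2, at 9.60 and 7.91 FPKM. The order of Dll1, Rbpj, Rest, Jag1 and Notch2 changed from library to library, all between 0.539 and 8.23 FPKM outside GFP-positive replicate 1. Differences in level between genes were not tested. Notch1 stood at 0.0798 and 0.161 FPKM in GFP-negative and 0 and 0.472 FPKM in GFP-positive libraries.

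**Figure D4:**
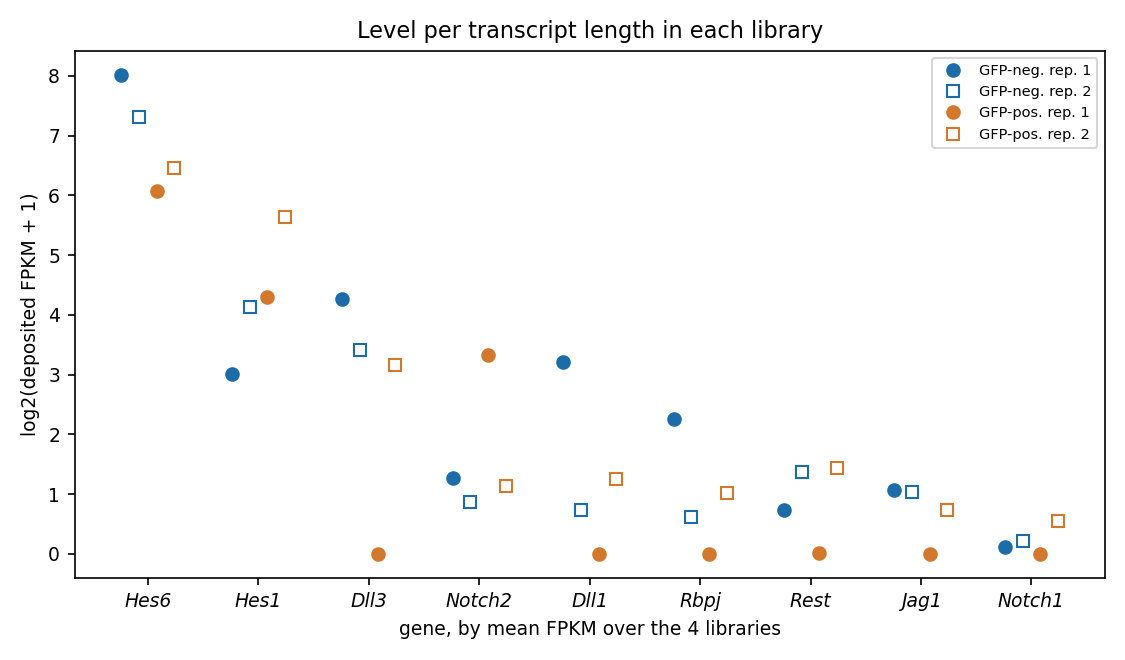
Deposited FPKM of the 9 genes in each library, as log2(FPKM + 1), with GFP-negative libraries in blue, drawn left of GFP-positive libraries in orange (circles for replicate 1, squares for replicate 2), and genes ordered by mean FPKM. Hes6 is highest in every library, and 6 genes are at or close to 0 in GFP-positive replicate 1.

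Other genes of the pathway were read from lists made by role, and no member of these pathway lists passed edgeR's test at an adjusted p under 0.05, so their directions are descriptions. Of 8 Notch ligands and ligand-like genes, 8 had a log2 change above 0 (median 1.60), where 68.1% of all tested genes were above 0. All 8 were at 0 counts in GFP-positive replicate 1, as were 64.4% of all tested genes. Without that library the median of the 8 was 0.59, against 0.29 for all tested genes. Dlk1, a noncanonical ligand that lacks the receptor-activating domain, had 5.30 and 0.300 CPM in GFP-negative libraries and 0 counts in both GFP-positive libraries. With 3 counts per library as the limit, its mean was higher by at least 44.1-fold, and by at least 4.73-fold without GFP-negative replicate 1. Such bounds cover counting error only. Their limit is a mean over both GFP-positive libraries, although the 0 counts of replicate 1 were shared by 64.4% of all tested genes. Dner, a neuronal ligand, had 187 and 35.2 CPM in GFP-negative libraries, against 0 and 62.5 CPM in GFP-positive libraries, so its groups overlapped (log2 change 1.83 ± 3.10, and 0.17 without GFP-negative replicate 1). The 3 tested receptors were all below 0 (median -2.93, and -1.83 without GFP-positive replicate 1).

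Genes that process receptors and ligands had changes on both sides of 0. Of 27 genes 18 were above 0 and 9 below, with a median of 0.96, against 0.91 for all tested genes, and of 0.0261 without GFP-positive replicate 1. Dtx1, a ubiquitin ligase of the pathway that is also a Notch target, had 20.2 and 7.63 CPM in GFP-negative libraries, against 0 and 0.910 CPM in GFP-positive libraries, without overlap (log2 change 4.93 ± 5.26, and 3.93 without GFP-positive replicate 1).

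In the list of Rbpj and its cofactors 14 of 15 genes were above 0, with a median of 0.99. Without GFP-positive replicate 1, 8 were above 0 and the median was 0.42. Spen, a corepressor that binds Rbpj, had 16.4 and 1.40 CPM in GFP-negative libraries and 0 counts in both GFP-positive libraries. For counting error only, its mean was higher by at least 140-fold, and by at least 22.0-fold without GFP-negative replicate 1. The spread between libraries is not in these bounds.

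The Notch targets differed in direction. Of 5 tested genes, Hes1 was below 0 and Hes5, Hey1, Nrarp and Dtx1 were above 0 (median 1.92, and 0.91 without GFP-positive replicate 1). These 4 had 0 counts in GFP-positive replicate 1. Hey1, a Hes-related repressor, had 22.2 and 16.6 CPM in GFP-negative libraries, against 0 and 11.2 CPM in GFP-positive libraries. Nrarp, which feeds back on the Notch complex, had 39.4 and 3.78 CPM in GFP-negative libraries, against 0 and 6.28 CPM in GFP-positive libraries, an order of libraries like that of Dll1 (log2 change 2.78 ± 4.68, and 0.27 without GFP-negative replicate 1). Hes7, Hey2 and Heyl were also on the list and are not analysed here.

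The list of Hes6 and proneural factors had 3 tested genes, and all 3 were above 0. Insm1, a zinc finger factor of neuroendocrine cells, had 58.4 and 9.18 CPM in GFP-negative libraries, against 0.107 and 2.56 CPM in GFP-positive libraries, without overlap (log2 change 4.66 ± 4.99, 3.72 without GFP-positive replicate 1 and 2.78 without GFP-negative replicate 1).

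Rest works with corepressors, and of the 10 genes in that list 9 were above 0 (median 1.31, and 0.70 without GFP-positive replicate 1). Hdac2, a histone deacetylase, had 326 and 167 CPM in GFP-negative libraries, against 0.480 and 92.6 CPM in GFP-positive libraries. Sin3a, a corepressor scaffold, had 27.6 and 10.5 CPM in GFP-negative libraries, against 0 and 2.07 CPM in GFP-positive libraries. For both genes the groups did not overlap and GFP-positive replicate 1 was lowest.

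Of 20 neuronal genes known as Rest targets, 17 were above 0, with a median of 1.88, and of 1.20 without GFP-positive replicate 1, against 0.91 and 0.29 for all tested genes. Of these 20 genes 13 had 0 counts in GFP-positive replicate 1, against 64.4% of all tested genes. The 2 shares are not matched on level, and whether the loss of counts there was particular to these genes was not tested. Scg2, a granin of secretory granules, had 787 and 84.1 CPM in GFP-negative libraries, against 0.213 and 33.2 CPM in GFP-positive libraries. The groups did not overlap, and its change of 4.70 ± 2.27 had an unadjusted p of 0.0386 and an adjusted p of 1.0 by edgeR. The change of Scg2 was 3.71 without GFP-positive replicate 1 and 2.33 without GFP-negative replicate 1. Syt4, a vesicle protein, had 8.13 and 2.31 CPM in GFP-negative libraries and 0 counts in both GFP-positive libraries. For counting error only, its mean was higher by at least 82.2-fold, and by at least 36.4-fold without GFP-negative replicate 1. The spread between libraries is not in these bounds.

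**Figure D5:**
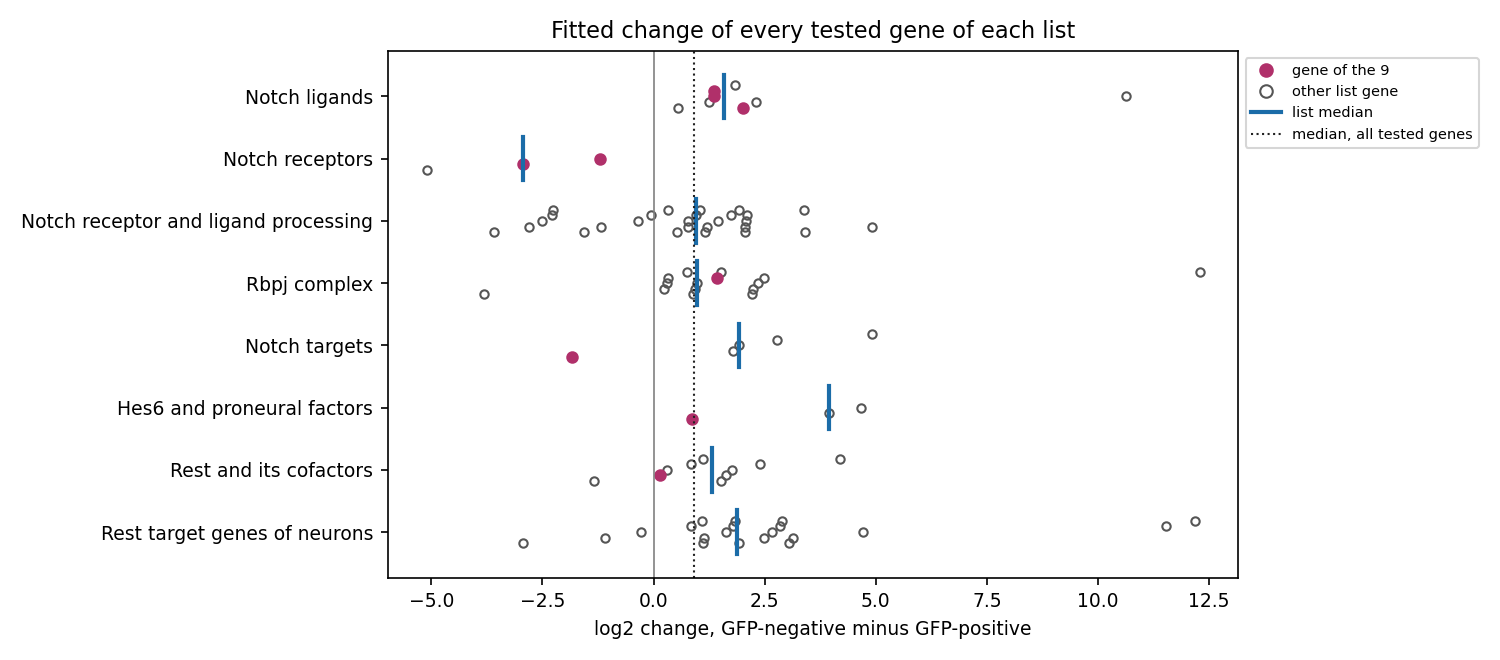
Fitted log2 change, GFP-negative minus GFP-positive, of every tested gene of the 8 pathway lists (filled points are genes among the 9, open points other list genes, heights within a row have no meaning). Blue bars are list medians, and the dotted line is the median of all tested genes, 0.91. The medians of the processing list and of the Rbpj list, 0.96 and 0.99, lie beside the dotted line, and that of the receptors, -2.93, lies below 0. Points above 10 are Dlk1, Spen, Syt4 and Bdnf, which had 0 counts in both GFP-positive libraries, so their fitted size is no measure of fold.

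Markers of other cell types differed between the same libraries. Of 10 macrophage markers 9 were tested and all 9 were below 0, with summed levels of 814 and 11126 CPM in GFP-negative libraries, against 95911 and 30317 CPM in GFP-positive libraries. The 6 erythroid genes, also all below 0, summed to 1573 and 5395 CPM in GFP-negative libraries, against 45562 and 14336 CPM in GFP-positive libraries. Hes1 was lowest in GFP-negative replicate 1, where both sums were lowest, but highest in GFP-positive replicate 2, while both sums were highest in GFP-positive replicate 1. Notch2 was highest in GFP-positive replicate 1 and nearly equal in the GFP-negative libraries, whose macrophage sums differed more than 10-fold. Lyz2 made most of both GFP-negative sums, at 480 and 8635 CPM. Csf1r, at 43.6 and 19.3 CPM, and Itgam, at 8.65 and 1.97 CPM, were lower in GFP-negative replicate 2. Every other tested macrophage marker was higher in that library than in GFP-negative replicate 1. Ptprc, the CD45 gene of leukocytes, had 22.0 and 18.4 CPM in GFP-negative libraries, against 0 and 79.9 CPM in GFP-positive libraries. It was thus at 0 in the library with the highest macrophage sum, as was 1 of the 9 macrophage markers. Also at 0 there were 64.4% of all tested genes, and 73.2% of those at 1 to 50 CPM on average in the other 3 libraries. The part of macrophages, other leukocytes and erythroid cells in the levels of Hes1 and Notch2 was not tested. The markers that edgeR called, all lower in GFP-negative libraries, were Chil3, Lyz2, Hbb-bs and Hba-a1, and none of these 4 was called without GFP-positive replicate 1.

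Endothelial cells and pericytes are known for Notch signalling of their own. Of 10 endothelial markers 6 were tested, and they summed to 106 and 71.8 CPM in GFP-negative libraries, against 396 and 20.7 CPM in GFP-positive libraries. Pecam1 made nearly all of the highest sum, with 396 CPM in GFP-positive replicate 1, where 4 of the 6 had 0 counts. Fibroblast and pericyte markers, with 6 of 10 tested and Dcn the most abundant, summed to 36.3 and 68.0 CPM in GFP-negative libraries, against 0.267 and 85.0 CPM in GFP-positive libraries.

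The remaining marker lists also varied between libraries of a group. B and plasma cell markers (8 of 9 tested, Ighm the most abundant) summed to 1144 and 3342 CPM in GFP-negative libraries, against 0.213 and 1462 CPM in GFP-positive libraries, where 7 were at 0 in replicate 1. T and NK cell markers (6 of 9 tested, Nkg7 the most abundant) summed to 15.3 and 44.9 CPM in GFP-negative libraries, against 0 and 123 CPM in GFP-positive libraries. Airway secretory and ciliated markers (7 of 8 tested, Scgb1a1 the most abundant) summed to 406 and 3212 CPM in GFP-negative libraries, against 4079 and 2937 CPM in GFP-positive libraries. Alveolar type 2 markers (5 of 6 tested, Sftpc the most abundant) summed to 95.7 and 2400 CPM in GFP-negative libraries, against 147 and 195 CPM in GFP-positive libraries. The part of these cells in the levels of the Notch genes was not tested.

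The genes whose profile over the 4 libraries was most like that of Dll3, Hes1 and Rest were found by the root mean square difference of log2(CPM + 1) after each gene's mean was subtracted, among 10193 other genes with a mean of at least 5 CPM. For Dll3 these were Med30, Ing3 and Evi5, with differences of 0.0317, 0.0733 and 0.0786, and all 3 had 0 counts in GFP-positive replicate 1. For Hes1 they were H2-K1, a class I histocompatibility gene, and Slc3a2, a subunit of amino acid transporters, at 0.14 and 0.17. H2-K1 had 125 and 436 CPM in GFP-negative libraries, against 809 and 1373 CPM in GFP-positive libraries, the same order of libraries as Hes1. For Rest they were Gm7879, Pde1a and Oit1, at 0.0337, 0.0838 and 0.0954. The 0 counts shared with Dll3 and the order shared with Hes1 follow from how these genes were chosen. Close profiles over only 4 libraries are easily found among so many genes.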

How the data were processed

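Per the labels' protocols, cDNA was primed with oligo(dT), extended by template switching, amplified by PCR and sequenced in pairs, without molecular identifiers, so that PCR copies count as separate molecules. The authors deposited whole-number counts per gene symbol for the 4 libraries, per the file headers. They also deposited FPKM values in the same table, per the file headers. The submitters' processing notes name cutadapt 1.9, HISAT2 2.2.1, StringTie 2.1.6, DESeq2 and edgeR and the build mm10. The annotation was not given in the sources used here, nor was the handling of shared reads.

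Counts were tested in R 4.3.3 with edgeR 4.0.16. The filter filterByExpr (minimum count 10) left 16301 genes. TMM factors were 1.54 and 0.956 in GFP-negative and 0.722 and 0.944 in GFP-positive libraries. The quasi-likelihood fit (glmQLFit, glmQLFTest) had the group as its only term, with Benjamini-Hochberg adjustment over all tested genes and a threshold of 0.05. The standard error is the absolute log2 change over the square root of F. The script was tested on simulated counts at dispersions below the 3.67 of these data, so that check does not cover a spread as wide as theirs. Alternatives were a replicate block, no filter, DESeq2 size factors, library totals, DESeq2 1.42.0's Wald test, limma 3.58.1 on log2 FPKM with pseudocounts of 1 and 0.1, and leaving out each library, where a lone library is assumed to vary like the other group. One alternative, fitting only genes with counts in all 4 libraries, was chosen after seeing the data.

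Named genes were the 9 genes, in each pathway list the called genes or else the 2 others with the smallest p, in each marker list the called genes and the most abundant, and the 3 genes closest in profile to Dll3, Hes1 and Rest. Hes5, Hey1, Bdnf and 0610009E02Rik were named after their values were seen. Of the genes this rule names, 4 are not reported here. The genes and lists were chosen with earlier results of these data known. Positions came from GENCODE M21 on mm10.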

Additional observations from a re-analysis of the deposited data

How the results depend on the processing

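None of the 9 genes was called with the replicate block, no filter, DESeq2 size factors, library totals, DESeq2's Wald test, limma on FPKM with either pseudocount, or genes with counts in all 4 libraries, where 5 of the 9 could be fitted. Leaving out each library in turn gave 0 to 4 calls among the 9. The 4 were Dll1, Dll3, Jag1 and Rbpj without GFP-positive replicate 2 (edgeR adjusted p = 0.0174, 0.0110, 0.0395 and 0.0191), where the only GFP-positive library left held at most 1 count for each of them. Over all genes the 16 calls became 63 with DESeq2's Wald test, 42 with limma on FPKM with a pseudocount of 0.1, and 5 in the 5492 genes with counts in all 4 libraries. With each library left out, calls ran from 1 (without GFP-positive replicate 1) to 7601 (without GFP-positive replicate 2), with 23 without GFP-negative replicate 1 and 59 without GFP-negative replicate 2. The median log2 change over all genes, 0.91, was 1.12 with DESeq2 size factors, 1.33 with library totals and -0.06 among genes with counts in all 4 libraries.

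Whether libraries with the same replicate number share an animal is not given in the sources used here. The differences between replicates correlated at 0.0333 between the groups over all tested genes. This value cannot decide the question, since 64.4% of tested genes were at 0 counts in GFP-positive replicate 1. With the replicate block 21 genes were called, 0 of them among the 9, and the log2 change was 2.82 for Notch1, 3.64 for Nkg7, 0.16 for Calca and 4.61 for Ptprc, each turned from below 0. Of the 9 genes, Notch1 with the block and Dll1, Notch1 and Rest with a library left out changed direction, and no other change of direction among the 9 was seen in these alternatives. Limma on FPKM turned Nkg7 to 0.58 and 2.1 and Ptprc to 0.0420 and 1.07, with pseudocounts of 1 and 0.1. Calca, the most abundant neuroendocrine marker, became 0.10 with DESeq2 size factors and with DESeq2's Wald test, 0.88 with library totals, 0.71 in both limma fits and 0.0506 among genes with counts in all 4 libraries.

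With each library left out in turn, the log2 change ranged from 0.36 to 14.34 for Dll3, 0.35 to 11.78 for Jag1, -3.79 to -0.54 for Notch2, 0.0195 to 9.59 for Rbpj, -3.06 to -1.17 for Hes1 and 0.83 to 0.92 for Hes6. It ranged across 0, from -0.0738 to 13.05 for Dll1, -2.29 to 10.04 for Notch1, -1.15 to 5.99 for Rest, -7.30 to 1.19 for Pecam1, -1.22 to 14.30 for Dcn, -0.35 to 11.67 for Ighm, -3.90 to 13.43 for Nkg7, -1.0 to 3.75 for Sftpc, -1.81 to 2.2 for Calca, -1.99 to 13.52 for Ptprc, -1.25 to 6.26 for Gm7879, -1.18 to 11.88 for Pde1a and -1.15 to 11.83 for Oit1. The causes were not tested. Chil3, Lyz2, Hbb-bs and Hba-a1 lost their calls with DESeq2's Wald test, among genes with counts in all 4 libraries, and without either GFP-positive library. Their changes were about as large in the first 2 of these: -5.22 and -5.15 for Chil3 (-5.15 with all libraries and genes) and -2.86 and -2.79 for Lyz2 (-2.79). The 0 to 5 counts of Dll1, Dll3, Jag1, Notch1, Rbpj and Rest in GFP-positive replicate 1 fix no fold, although the total count of that library is not far below the others.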
